A study of Mus musculus with 9 samples.

Results

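The 10 genes described here take part in leukocyte adhesion and were followed in the heart after ischemia and reperfusion, namely the selectins Sele and Selp, the selectin ligand Selplg, the endothelial adhesion molecules Icam1, Icam2, Vcam1 and Pecam1, and the integrin subunits Itgal, Itgb2 and Itga4. They were chosen by name, as 10 of the 23747 genes in the expression tables. Nuclei of 9 mouse hearts (3 mice per group) were sequenced by sNuc-seq, which tags every captured transcript with a unique molecular identifier (UMI). C57BL/6 mice, 8 weeks old per the methods, were used in all groups, and the tissue came from below the ligation site. The sham group received vehicle by gavage for 7 days and an operation in which the left anterior descending artery (LAD) was not tied. The I/R group received vehicle for 7 days, LAD ligation for 30 min and reperfusion for 24 h. The SBP group received Shexiang Baoxin Pill (MUSKARDIA by its label) for 7 days, and then underwent that ligation and reperfusion. All mice were given penicillin.

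Leukocytes leave the blood in ordered steps. Selectins on activated endothelium, E-selectin (Sele) and P-selectin (Selp), catch passing leukocytes through sialylated ligands such as PSGL-1 (Selplg), so that the cells roll along the vessel wall. Rolling cells then stop when integrins bind immunoglobulin-type adhesion molecules, with LFA-1 (Itgal with Itgb2) binding ICAM-1 and ICAM-2, and VLA-4 (Itga4 with the beta-1 subunit) binding VCAM-1. PECAM-1 sits at endothelial junctions and on leukocytes and takes part in their passage between endothelial cells. P-selectin is also stored ready-made in endothelial and platelet granules, so its transcript is only a part of its supply. Sele, Selp, Icam1 and Vcam1 are classical targets of inflammatory signals in endothelium.

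The genes lie on 8 chromosomes of the mouse genome (GRCm38). Sele (chr1:164048234-164057677, plus strand) and Selp (chr1:164115264-164150026, plus strand) are neighbours. Icam1 lies at chr9:21015985-21028817 (plus strand), Vcam1 at chr3:116109949-116129688 (minus strand), and Icam2 (chr11:106377656-106388075, minus strand) and Pecam1 (chr11:106654217-106750628, minus strand) lie on chromosome 11. The leukocyte genes are Selplg (chr5:113818536-113832644, minus strand), Itgal (chr7:127296260-127335138, plus strand), Itgb2 (chr10:77530252-77565708, plus strand) and Itga4 (chr2:79255426-79333123, plus strand). A promoter of 300 bases, 250 before and 50 after the start, was given by RefSeq (GRCm38.p6) for 4 of the 10 genes. Those of Sele (chr1:164047984-164048283), Selp (chr1:164115014-164115313) and Icam1 (chr9:21015690-21015989), all on the plus strand, are shown because these 3 genes were high together in 1 I/R heart, described further on. Capitals mark GGNNNTTCC on either strand, a short form of the site that NF-kB proteins are known to bind, and TATAAA on the plus strand. The first pattern was chosen after these sequences had been seen.
Sele: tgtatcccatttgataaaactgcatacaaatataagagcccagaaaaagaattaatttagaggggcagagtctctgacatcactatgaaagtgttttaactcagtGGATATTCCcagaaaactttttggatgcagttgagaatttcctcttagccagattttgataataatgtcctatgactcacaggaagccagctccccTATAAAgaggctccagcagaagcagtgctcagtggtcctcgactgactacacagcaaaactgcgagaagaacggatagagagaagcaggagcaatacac
Selp: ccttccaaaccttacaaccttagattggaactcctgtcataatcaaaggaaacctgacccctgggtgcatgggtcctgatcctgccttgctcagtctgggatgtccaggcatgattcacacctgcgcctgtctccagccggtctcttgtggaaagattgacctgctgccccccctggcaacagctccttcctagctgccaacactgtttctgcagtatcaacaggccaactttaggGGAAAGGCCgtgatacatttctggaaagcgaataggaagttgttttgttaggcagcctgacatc
Icam1: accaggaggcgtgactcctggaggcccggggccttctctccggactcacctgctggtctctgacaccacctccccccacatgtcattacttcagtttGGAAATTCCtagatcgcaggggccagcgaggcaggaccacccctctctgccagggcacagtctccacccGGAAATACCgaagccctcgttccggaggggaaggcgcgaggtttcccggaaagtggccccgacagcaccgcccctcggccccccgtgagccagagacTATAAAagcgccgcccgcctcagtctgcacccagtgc
Counted from the RefSeq start, Sele held GGATATTCC at -145 and TATAAA at -49. Selp held 1 match, which reads GGAAAGGCC on the plus strand, at -14. Icam1 held GGAAATTCC at -153, which matches on both strands, GGAAATACC at -84 on the minus strand, and TATAAA at 13. The RefSeq start of Icam1 lies upstream of the gene start given above, and this TATAAA lies between those starts. Of 32851 RefSeq promoters of the same length, 18.48% held GGNNNTTCC and 13.62% held TATAAA, each counted on either strand, so neither pattern is rare. The promoter of Itga4, the fourth in the table, held neither.

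The 9 libraries held 49171 nuclei, with 4576 to 6418 nuclei and 10329520 to 18205985 UMIs each. The study states a larger number of cells after quality control, and the reason for the gap is not known here. Levels are given as CPM, the UMIs of a gene per 1000000 UMIs of all nuclei of a type in 1 sample, scaled by trimmed-mean factors. Differences are on the log2(CPM + 1) scale with their standard error (SE), which understates the change of low genes, and come from limma over all 9 samples, with p-values adjusted by the Benjamini-Hochberg method over all genes tested. A gene was called where the adjusted p did not exceed 0.05 and the log2 difference passed 0.25 in either direction. Values without overlap between groups are a description and not a test, and their share over all genes is not given. Cell types are clusters named here from marker genes that did not include the 10 genes, so the names stand for nuclei that resemble a type. Endothelial sums kept unnamed clusters led by Pgam2, Actc1 and Tnnc1 (461 nuclei) and by the leukocyte genes Csf3r, Cd300lf and Il1b (74 nuclei). Of the 149 Itgb2, 143 Selplg and 64 Itgal UMIs of endothelial nuclei, these clusters held 11, 14 and 8. I/R replicate 1 stood apart in its cells, with 122 capillary nuclei against 400 and 557 in the other I/R libraries, and 1008 injury macrophages against 90 and 266. I/R replicate 2 also differed, with 743 monocytes among 1404 myeloid nuclei, against 595 of 2308 and 118 of 1034 in I/R replicates 1 and 3. It had 81 neutrophils, against 21 and 50. Between 51 and 74 barcodes of each library also occurred in another library, as 290 barcodes in all.

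Apart from Sele, which had few UMIs, the genes fell into endothelial and leukocyte groups. Endothelial nuclei held 84.6% ± 2.13 (SD, n = 3) of all Pecam1 UMIs in sham hearts, 91.0% ± 4.45 of Selp, 74.2% ± 4.61 of Icam2, 63.8% ± 7.20 of Vcam1 and 59.5% ± 5.63 of Icam1. Fibroblasts held most of the remaining Icam1 (22.2% in sham) and Vcam1 (24.3%). The endothelial share of Sele was 42.5% ± 43.8 in sham (0 to 87.5%) and 60.9% ± 33.2 in I/R hearts (27.3% to 93.75%). Fibroblasts held 25.2% ± 23.1 of Sele in I/R hearts (0 to 45.5%). Myeloid nuclei, counted with dendritic cells and neutrophils, held 60.8% ± 4.22 of Itgb2, 53.4% ± 1.00 of Selplg and 51.4% ± 4.43 of Itga4 in sham hearts, while T cells held 49.4% of Itgal. After injury the myeloid share of Itga4 UMIs was 76.9% ± 4.89 in I/R and 69.5% in SBP hearts. Over the same hearts, the myeloid share of all nuclei was 11.5% ± 2.99 (sham), 27.1% ± 8.88 (I/R) and 18.3% ± 8.74 (SBP). These shares describe the source of the UMIs and were not tested.

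**Figure D1:**
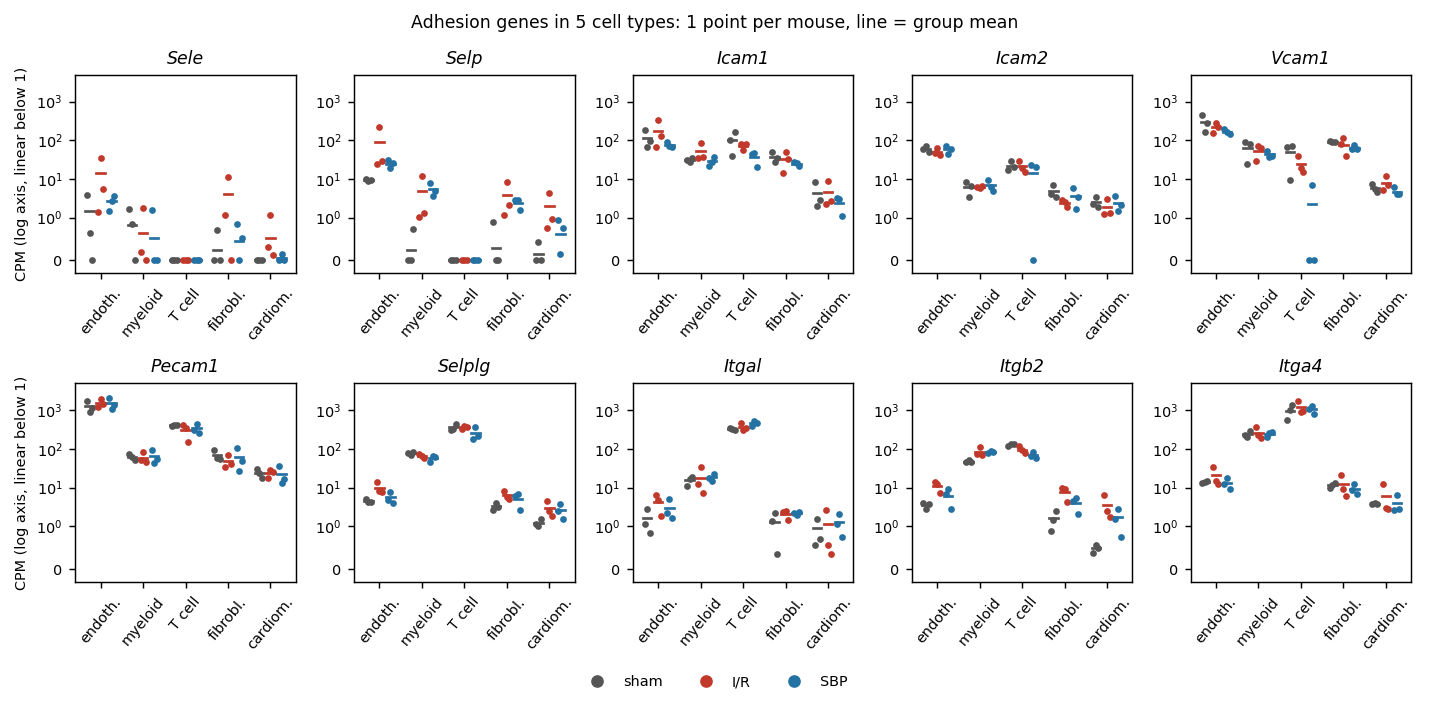
Level of each of the 10 genes (y axis, CPM, log axis that is linear below 1) in 5 cell types (x axis), with 1 point per mouse coloured by group and a line at the group mean. The group means of Sele, Selp, Icam1, Icam2, Vcam1 and Pecam1 were highest in endothelial nuclei, and those of Selplg, Itgal, Itgb2 and Itga4 in T cells or, for Itgb2 in the SBP group, in myeloid nuclei.

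The question for the selectins was whether their transcripts were higher 24 h after reperfusion. For P-selectin, all 3 I/R hearts and all 3 SBP hearts exceeded all 3 sham hearts in endothelial nuclei, without a call. Selp stood at 10.1, 8.60 and 9.59 CPM in sham replicates 1, 2 and 3. In the I/R group it stood at 23.7, 219 and 29.4 CPM, and in the SBP group at 30.2, 19.0 and 25.0 CPM. I/R replicate 2 was the highest by far, and the SBP values overlapped those of the other I/R hearts. The I/R minus sham difference was 2.40 ± 0.67 with an limma adjusted p of 0.0902, so Selp was not called. Without I/R replicate 2 the difference was 1.40, the SE was 0.24 and Selp was called (limma adjusted p = 0.0258). SBP minus sham gave 1.28 ± 0.67 (limma adjusted p = 0.397), and this became 0.0105 without I/R replicate 2 and 0.00909 when only the 6 sham and SBP samples were fitted. SBP minus I/R gave -1.12 ± 0.67 (limma adjusted p = 0.979), and -0.12 without I/R replicate 2.

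E-selectin transcripts were sparse. Sele had 7, 2 and 0 UMIs in the endothelial nuclei of sham replicates 1, 2 and 3, or 3.92, 0.637 and 0 CPM, where a count of 0 allows up to 1.25 CPM (3 UMIs). All 7 UMIs of sham replicate 1 came from 1 venous-like nucleus. I/R replicates 1, 2 and 3 had 1.37, 34.9 and 5.38 CPM, and SBP replicates 1.51, 2.72 and 3.69 CPM. Only I/R replicate 2 lay clear of the other libraries, and the groups overlapped. Sele fell below the filter on low genes in endothelial nuclei and was not tested there. Fibroblasts of I/R replicate 2 held 39 Sele UMIs, or 10.97 CPM, against 1.195 and 0 CPM in I/R replicates 1 and 3. Intervals on shares of nuclei below cover counting error only.

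The selectin signal of I/R replicate 2 was spread over many nuclei. Selp was detected in 135 of its 1318 endothelial nuclei (10.2%, exact 95% interval 8.66 to 12.0), against 27 of 1309 and 41 of 1596 in the other I/R hearts and 10 to 23 nuclei in each sham heart. In SBP hearts it was detected in 52 of 1666, 21 of 1291 and 27 of 1468 nuclei. A single nucleus held 51 Selp UMIs. Sele was detected in 30 of the 1318 nuclei (2.28%, 1.54 to 3.23), of which 15 also held Selp and 22 also held Icam1. In cardiomyocytes of the same library, which should lack both genes, 2.33% of nuclei held a Selp UMI and 0.634% a Sele UMI, at a median of 4086.5 UMIs per nucleus against 1309.5 in endothelial nuclei. Endothelial median depth ranged from 1086 to 1366.5 UMIs over the 9 libraries. Neither selectin had a UMI in the T cells of any library, where 3 UMIs would be 14.8 to 67.2 CPM.

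By subtype, Selp was carried by different endothelial nuclei in different hearts. Of the 502 endothelial Selp UMIs of I/R replicate 2, 271 lay in endocardial nuclei, 153 in a cluster led by Col15a1 and 47 in lymphatic nuclei. Capillary nuclei, which made up 30.4% of its endothelial nuclei, held 8. In I/R replicate 1 the Col15a1-led cluster held 38 of 52 Selp UMIs and in SBP replicate 2 it held 22 of 42. Sham hearts had 1, 5 and 11 nuclei in that cluster, too few for a level, and I/R replicate 1 alone had 495 of the 655 I/R nuclei. Col15a1, Spp1 and Igfbp7 led the cluster, which was left unnamed. It held 5 capillary markers in over 10% of its nuclei, but their mean log2 ratio to the other endothelial nuclei was -0.041.

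Selp reached its highest levels in the Col15a1-led cluster, at 59.2, 751 and 307 CPM in I/R replicates 1, 2 and 3 and 180, 130 and 60.7 CPM in the SBP replicates. Sele stood there at 3.12, 128 and 125 CPM in I/R and at 22.5, 11.9 and 37.9 CPM in SBP hearts, and Icam1 at 59.2, 486 and 390 CPM and 90.0, 65.2 and 83.4 CPM. I/R replicates 2 and 3 exceeded all SBP hearts for the 3 genes, and I/R replicate 1, with the most nuclei, lay below all SBP hearts. I/R replicate 3 had only 37 nuclei in the cluster. When the capillary, venous-like and Col15a1-led nuclei were merged into 1 class, an alternative added after seeing the data, Selp was called in I/R against sham (2.92 ± 0.64, limma adjusted p = 0.0385). The Col15a1-led cluster had 1 to 11 nuclei per sham heart and 37 to 495 per I/R heart. In this class and in the endothelial sum, a change of mix cannot be told apart from a change within nuclei. Taken alone, venous-like Selp was 15.6 to 36.2 CPM in sham and 27.7 to 72.2 CPM in I/R hearts, with overlap. Capillary Selp was 1.86 to 9.03 CPM in sham and 2.82 to 16.8 CPM in I/R hearts, also with overlap.

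In endocardial nuclei, which line the heart chambers, Selp stood at 8.27, 15.9 and 11.5 CPM in sham, 3.18, 277 and 18.4 in I/R and 28.9, 2.62 and 38.3 in SBP hearts. The groups overlapped, and the I/R minus sham difference of 1.18 ± 1.49 was smaller than its error. Platelets also make Selp. Megakaryocyte and platelet markers (5 of 5 with a UMI) summed to 8.96 to 9.24 CPM in endothelial nuclei of sham, 37.7 to 65.0 of I/R and 18.5 to 35.8 of SBP hearts. Neutrophil markers (5 of 5 with a UMI) summed to 11.5 to 42.0, 106 to 399 and 80.0 to 182 CPM in the same nuclei. Their part in the Selp difference was not tested.

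**Figure D2:**
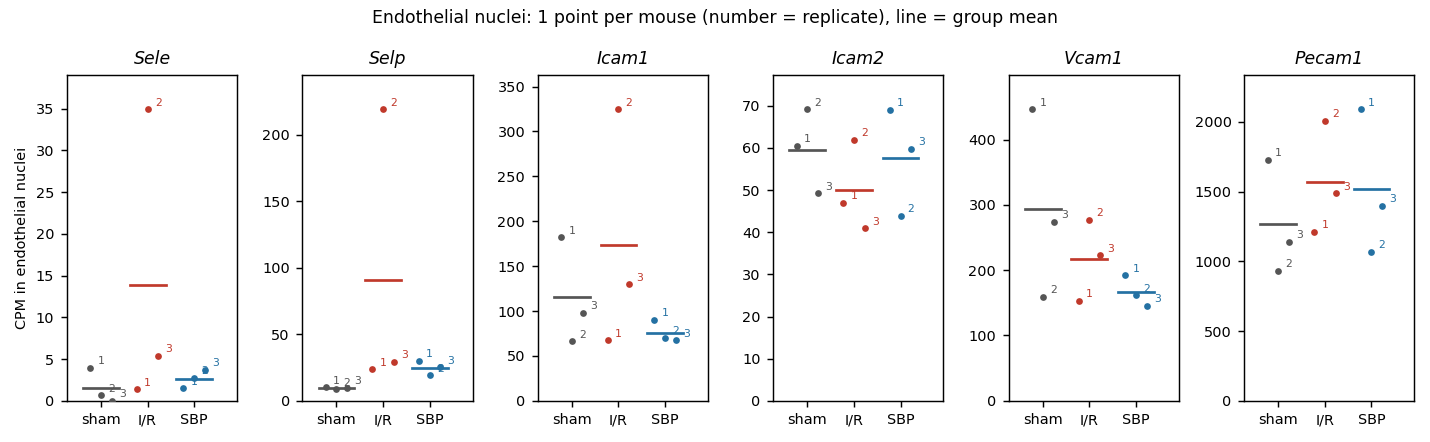
Levels in endothelial nuclei (y axis, CPM, linear from 0) by group (x axis), with 1 numbered point per mouse and a line at the group mean. I/R replicate 2 is the highest point of Sele, Selp and Icam1, and the 3 sham points of Selp lie between 8.60 and 10.1 CPM, below all other points.

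Selplg, which encodes the main P-selectin ligand of leukocytes, was not called in any population. In myeloid nuclei it stood at 77.7, 68.6 and 83.2 CPM in sham, 75.02, 65.8 and 57.2 in I/R and 47.4, 66.9 and 62.3 in SBP hearts. All SBP hearts lay below all sham hearts (-0.38 ± 0.18, limma adjusted p = 0.194). T cells had higher levels, 317 to 455 CPM in sham, 330 to 391 in I/R and 179 to 367 in SBP hearts, with overlap between all groups. Dendritic cells (193 CPM on average over 2 sham samples) and neutrophils (249 ± 83.5, SD, n = 3, I/R, on 4, 24 and 10 UMIs) also carried it. In endothelial nuclei Selplg was low, 4.14 to 5.04 CPM in sham and 7.54 to 14.1 CPM in I/R, without overlap (0.97 ± 0.32, limma adjusted p = 0.125). The 10 myeloid markers in the same nuclei summed to 303 to 423 CPM in sham, 572 to 699 in I/R and 342 to 437 in SBP hearts, and their part was not tested.

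ICAM-1, the induced ligand of LFA-1, was highest in the same heart as the selectins. Endothelial Icam1 stood at 182, 66.3 and 98.0 CPM in sham, 67.5, 324.5 and 129.9 in I/R and 90.1, 70.2 and 67.3 in SBP hearts. I/R replicate 2 was the highest and the other I/R hearts lay within the sham range (0.42 ± 0.52, limma adjusted p = 0.731). In SBP hearts Icam1 was level with the lower sham hearts, and SBP minus I/R was -0.91 ± 0.52 (limma adjusted p = 0.979). Without I/R replicate 2 the 2 differences were -0.17 and -0.31. Of the endothelial nuclei of I/R replicate 2, 24.2% (exact 95% interval 21.9 to 26.6) held an Icam1 UMI, against 8.48% and 12.5% in the other I/R hearts, 7.62% to 16.0% in sham and 7.90% to 9.37% in SBP hearts. The same heart was highest for Icam1 among myeloid nuclei, at 83.2 CPM against 34.4 and 36.7 in the other I/R hearts, 26.6 to 35.5 in sham and 21.3 to 37.5 in SBP hearts.

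Within endothelium, endocardial Icam1 stood at 182, 71.3 and 88.7 CPM in sham, 79.4, 455.5 and 160.7 in I/R and 88.9, 77.3 and 76.6 in SBP hearts. Capillary Icam1 stood at 237, 53.0 and 109 CPM in sham, 61.9, 271 and 86.1 in I/R and 82.2, 76.3 and 64.1 in SBP hearts. Both subtypes had the highest I/R value in replicate 2. The endocardial response minus the capillary response was 0.75 ± 0.28 for I/R against sham, with an unadjusted limma p of 0.0223 and an adjusted p of 0.618. Venous-like Icam1 was 286, 151 and 145 CPM in sham, 161, 244 and 194 in I/R and 171, 118 and 73.2 in SBP hearts (SBP minus I/R -0.79 ± 0.32, limma adjusted p = 1.0).

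ICAM-2, the ligand of LFA-1 on resting endothelium, overlapped between all groups in the sum of endothelial nuclei. Icam2 there stood at 60.5, 69.1 and 49.2 CPM in sham, 47.0, 61.9 and 40.9 in I/R and 69.0, 43.9 and 59.9 in SBP hearts. The log2 differences were -0.26 ± 0.21 for I/R minus sham and 0.20 ± 0.21 for SBP minus I/R. Arterial nuclei gave 80.0 to 82.7 CPM in SBP against 50.3 to 68.3 in sham hearts, without overlap (0.51 ± 0.43, limma adjusted p = 0.7). In fibroblasts Icam2 was low, 3.492 to 6.84 CPM in sham and 1.90 to 2.87 CPM in I/R hearts, without overlap (-0.72 ± 0.38, limma adjusted p = 0.268).

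VCAM-1, the endothelial partner of VLA-4, was not called in any population with all 9 samples fitted. Separations of 3 hearts from 3 hearts below are descriptions, and nothing is read from them without their share over all genes. Endocardial Vcam1 was 760, 288 and 839 CPM in sham, 381, 491 and 482 in I/R and 307, 333 and 288 in SBP hearts. The 3 SBP hearts lay below the 3 I/R hearts (-0.54 ± 0.34, limma adjusted p = 0.979), and sham replicate 2 lay at the level of the SBP hearts. For endocardial Vcam1, SBP minus sham was -0.88 ± 0.34 (limma adjusted p = 0.383), and without sham replicate 2 it was -1.34 and was called (limma adjusted p = 0.0163). Venous-like Vcam1 was 314, 250 and 202 CPM in sham, 143, 150 and 159 in I/R and 168, 142 and 93.8 in SBP hearts. Every sham heart exceeded every I/R and SBP heart there, with differences of -0.74 ± 0.25 for I/R (limma adjusted p = 0.226) and -0.94 ± 0.25 for SBP (limma adjusted p = 0.179). The venous-like name rests on few markers, and Rasa4, Kirrel3 and Col13a1 led the cluster. In over 10% of its nuclei this cluster held 3 venous markers (mean log2 ratio 0.434) and 6 capillary markers (0.322). The larger endocardial cluster had a higher mean ratio of the venous markers (0.784).

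Capillary Vcam1 lay between 20.6 and 126 CPM over the 9 hearts, and endocardial Vcam1 between 288 and 839. Over all endothelial nuclei Vcam1 was 446, 159 and 274 CPM in sham, 153, 277 and 223 in I/R and 192, 162 and 146 in SBP hearts, and all groups overlapped. Fibroblasts also carried Vcam1, at 93.6, 91.8 and 90.8 CPM in sham, 77.6, 113 and 39.2 in I/R and 59.0, 75.8 and 59.0 in SBP hearts. The SBP hearts lay below the sham hearts (-0.51 ± 0.30, limma adjusted p = 0.385). In resident macrophages Vcam1 was 74.1, 27.9 and 84.7 CPM in sham, 101, 125 and 120 in I/R and 93.8, 93.2 and 57.8 in SBP hearts, and I/R minus sham was 1.02 ± 0.35 (limma adjusted p = 0.16). This fit of resident macrophages was added after seeing the data.

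**Figure D3:**
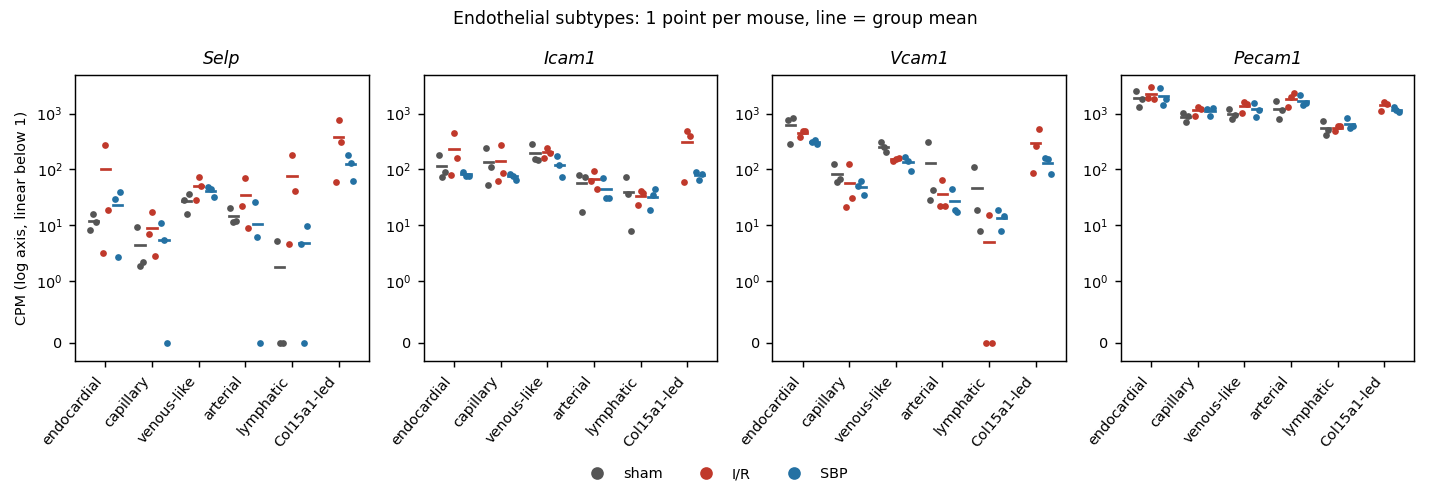
Levels of the endothelial adhesion genes (y axis, CPM, log axis that is linear below 1) in 6 endothelial subtypes (x axis), with 1 point per mouse coloured by group and a line at the group mean. Sham points are missing for the Col15a1-led cluster, which had at most 11 sham nuclei per heart, and the group means of Vcam1 are highest in endocardial nuclei.

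PECAM-1, a junction protein of all endothelium, was not called in any population. Endothelial Pecam1 stood at 1728, 929 and 1139 CPM in sham, 1209, 2009 and 1486 in I/R and 2088, 1069 and 1397 in SBP hearts. The groups overlapped and I/R minus sham was 0.33 ± 0.29 (limma adjusted p = 0.61). Sham replicate 1, I/R replicate 2 and SBP replicate 1 were the highest hearts of their groups. For Pecam1 the same 3 hearts were highest in endocardial, fibroblast, myeloid and cardiomyocyte nuclei, but not in capillary or arterial nuclei. This order was not particular to Pecam1. In endothelial nuclei these 3 hearts were also highest for Icam1, Vcam1 and Selp, but not for Icam2 or Sele. The cause was not tested. Among subtypes Pecam1 averaged 1883 CPM in endocardial, 1209 in arterial, 977 in venous-like, 876 in capillary and 552 in lymphatic nuclei of sham hearts, and each neighbouring pair in this order overlapped between hearts. Pecam1 was also present in T cells (414 CPM ± 13.7, SD, n = 3, sham) and B cells (697 ± 86.0). Arterial Pecam1 was 1660, 791 and 1177 CPM in sham and 1285, 1952 and 2306 in I/R hearts (0.63 ± 0.26, limma adjusted p = 0.284).

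On the leukocyte side, Itgb2 was the only member called in any population. It encodes CD18, the beta-2 subunit that pairs with Itgal in LFA-1 and with Itgam in Mac-1. In myeloid nuclei Itgb2 stood at 45.3, 50.6 and 44.9 CPM in sham, 72.5, 114 and 69.5 in I/R and 78.2, 88.1 and 84.3 in SBP hearts. Every injured heart exceeded every sham heart. Itgb2 rose in I/R against sham (0.81 ± 0.20, limma adjusted p = 0.0135) and in SBP against sham (0.82 ± 0.20, limma adjusted p = 0.0166). SBP minus I/R was 0.01 ± 0.20 (limma adjusted p = 1.0). The I/R call was lost without I/R replicate 2 (0.57, limma adjusted p = 0.0545), and the SBP call without SBP replicate 2 or 3 or sham replicate 3 (limma adjusted p = 0.0825, 0.0595 and 0.0582). An Itgb2 UMI was found in 6.22% to 7.55% of myeloid nuclei of sham hearts, 13.2% to 18.7% of I/R and 12.7% to 16.0% of SBP hearts, at median depths of 1368 to 1583, 1745.5 to 1916 and 1667 to 1843 UMIs.

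The mix of myeloid classes differed between the groups. Injury macrophages, named from Gpnmb, Spp1 and other markers, had 0 nuclei in sham hearts, monocytes 8 to 12 nuclei and neutrophils 0, 0 and 1. Itgb2 averaged 72.6 CPM ± 12.2 (SD, n = 3) in injury macrophages, 109 ± 28.4 in monocytes and 167 ± 96.8 in neutrophils of I/R hearts. The neutrophil values rest on 3, 19 and 4 UMIs, where 3 UMIs would be 145, 43.1 and 62.3 CPM. In resident macrophages, a class with over 200 nuclei in every heart, it was 23.7, 38.6 and 38.0 CPM in sham, 33.7, 79.4 and 64.2 in I/R and 55.9, 56.6 and 69.7 in SBP hearts. The SBP hearts lay above the sham hearts and I/R replicate 1 lay among them. With only resident macrophages fitted, I/R minus sham was 0.75 ± 0.32 (limma adjusted p = 0.261) and SBP minus sham 0.87 ± 0.32 (limma adjusted p = 0.256), so both calls were lost. A class that sham hearts lack, or that injured hearts have few of, cannot be told apart from a change within cells in the sum over all myeloid nuclei.

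In the whole heart Itgb2 stood at 4.88, 6.51 and 6.81 CPM in sham, 25.3, 28.0 and 12.3 in I/R and 11.6, 20.9 and 10.4 in SBP hearts. All sham hearts were the lowest, and Itgb2 rose in I/R against sham (1.63 ± 0.33, limma adjusted p = 0.0158). SBP minus sham was 1.06 ± 0.33 (limma adjusted p = 0.0988), and SBP minus I/R was -0.56 ± 0.33 (limma adjusted p = 0.999). The whole-heart call was lost without I/R replicate 2, sham replicate 1 or sham replicate 3 (limma adjusted p = 0.0577, 0.0578 and 0.0543). More myeloid nuclei and more Itgb2 per nucleus cannot be told apart in these sums.

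Itgb2 was also called in fibroblasts at low levels. It stood there at 0.896, 1.44 and 2.45 CPM in sham, 9.56, 9.001 and 4.28 in I/R and 4.50, 5.25 and 2.06 in SBP hearts, with no overlap of sham and I/R (1.71 ± 0.39, limma adjusted p = 0.016). The sham values rest on 2, 4 and 7 UMIs, under the filter on low genes, so Itgb2 entered this test only through the injured hearts and the call adds no support of its own. The call was lost without I/R replicate 2 or sham replicate 1 (limma adjusted p = 0.0669 and 0.0557). The 10 myeloid markers, all with a UMI in each group, summed to 365 to 685 CPM in fibroblasts of sham, 495 to 899 of I/R and 375 to 592 of SBP hearts. Itgb2 in fibroblasts was 3.396%, 8.93% and 4.71% of its myeloid level in sham, I/R and SBP hearts, where the median myeloid marker was 2.77%, 5.56% and 3.13%. In endothelial nuclei Itgb2 was 3.92, 2.87 and 3.75 CPM in sham, 13.7, 12.7 and 7.18 in I/R and 6.79, 9.05 and 2.87 in SBP hearts (I/R minus sham 1.39 ± 0.38, limma adjusted p = 0.0713), beside myeloid markers that summed to 303 to 423, 572 to 699 and 342 to 437 CPM. Cardiomyocyte Itgb2 was 0.378 to 0.576 CPM in sham and 1.70 to 6.43 CPM in I/R hearts (1.47 ± 0.40, limma adjusted p = 0.133), with 2, 4 and 5 UMIs in the sham hearts. In endothelial nuclei and cardiomyocytes, too, all sham values lay under the filter and Itgb2 was tested only through the injured hearts. The part of myeloid RNA in these values was not tested.

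Itgal, which encodes the alpha subunit of LFA-1, had its highest levels in T cells. Of Itgal UMIs, T cells held 49.4% (sham), 33.8% (I/R) and 36.7% (SBP), and myeloid nuclei 23.6%, 44.2% and 36.6%. In T cells Itgal stood at 350, 332 and 310 CPM in sham, 464, 316 and 356.5 in I/R and 403, 544 and 480 in SBP hearts. The 3 SBP hearts exceeded the 3 sham hearts, and the I/R hearts overlapped with both groups (SBP minus sham 0.51 ± 0.29, limma adjusted p = 0.759). T cells numbered 30 to 207 nuclei per heart. In myeloid nuclei Itgal was 11.3, 16.3 and 18.8 CPM in sham, 12.6, 34.1 and 7.43 in I/R and 18.2, 14.5 and 22.7 in SBP hearts, with overlap of all groups. Monocytes carried 14.9 to 48.8 CPM in I/R and 25.1 to 71.9 in SBP hearts, and injury macrophages 0 to 5.42 and 4.72 to 12.7 CPM.

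Itga4, the alpha subunit of VLA-4, had its highest levels in T cells, at 550, 997 and 1352 CPM in sham, 1741, 930 and 961 in I/R and 1053, 1305 and 820 in SBP hearts. B cells (631 CPM ± 72.7, SD, n = 3, sham) and dendritic cells (455 and 458 CPM in 2 sham hearts, 652 and 1109 in 2 I/R hearts) followed. Myeloid Itga4 stood at 236, 204 and 296 CPM in sham, 368, 227 and 187 in I/R and 207, 259 and 277 in SBP hearts. The groups overlapped and the differences were near 0, with 0.04 ± 0.24 for I/R minus sham and -0.02 ± 0.24 for SBP minus I/R. In endocardial nuclei the SBP values (10.6, 11.8 and 6.21 CPM) lay below all I/R values (14.3, 22.5 and 12.3 CPM), without a call. I/R replicate 1 was highest in the whole heart, at 124 CPM against 54.3 and 32.9 in the other I/R hearts and 27.4 to 49.3 in sham hearts. Its injury macrophages held 323 CPM and its monocytes 593 CPM, against 59.7 to 143 and 253 to 259 CPM in the other I/R hearts.

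**Figure D4:**
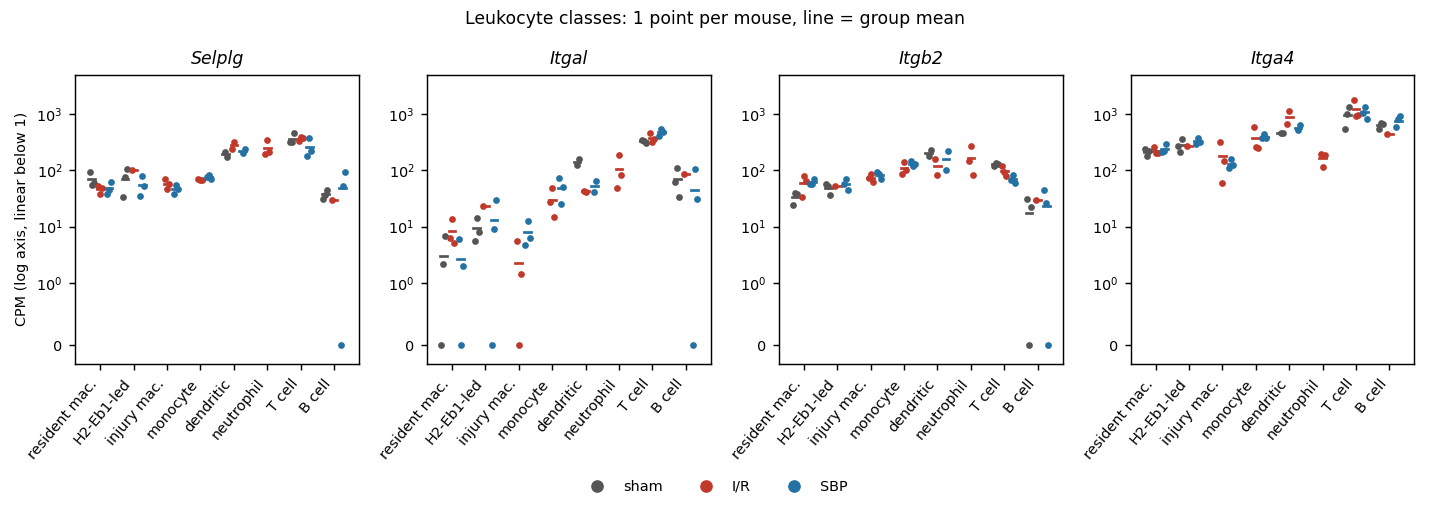
Levels of the leukocyte genes (y axis, CPM, log axis that is linear below 1) in 8 leukocyte classes (x axis), with 1 point per mouse coloured by group and a line at the group mean. Classes with fewer than 20 nuclei in a heart have no point, which leaves no sham point for injury macrophages, monocytes and neutrophils, and Itgal is highest in T cells.

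Over all populations, few of the 10 genes passed the test. In the whole heart limma called 1 of 10 for I/R against sham (Itgb2), where 11.3% of all genes were called, and 0 of 10 for SBP against sham (background 3.33%). At an unadjusted p under 0.05 stood 1 of 10 in the second contrast, against 3566 of all 16116 genes. In endothelial nuclei 0 of 9 were called in I/R against sham (background 3.24%) and 0 of 9 in SBP against sham (2.24%), with 3 and 0 at an unadjusted p under 0.05, against 2124 and 1868 of all 12130 genes. The median I/R minus sham difference of the 9 was 0.42, and that of all genes -0.03. In myeloid nuclei 1 of 7 was called in each of the 2 contrasts with sham (backgrounds 17.7% and 12.5%). Fibroblasts gave 1 of 8 and 0 of 8 (backgrounds 11.6% and 6.11%), with 3 and 2 at an unadjusted p under 0.05, against 3331 and 2574 of all 13054 genes. Cardiomyocytes gave 0 of 8 in both (0.83% and 0.14%), with 2 and 0 unadjusted, against 1834 and 1739 of all 12893 genes. Some members passed the filter on low genes only through the injured hearts. They were Itgb2 in endothelial nuclei, fibroblasts and cardiomyocytes, Itgal in endothelial nuclei, Selp in fibroblasts and Selplg in cardiomyocytes. These counts and the endothelial median of 0.42 therefore support nothing about the members.

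The smaller populations called none of the 10 genes against sham. The members tested numbered 4 in capillary nuclei (backgrounds 1.71% for I/R and 1.22% for SBP), 6 in endocardial (0.483% and 0.403%), 5 in venous-like (0.354% and 0.277%), 3 in arterial (1.27% and 0.693%), 1 in lymphatic (3.53% and 1.89%) and 4 in T cells (0.256% for each). With an unadjusted p under 0.05 were 2 of the venous-like genes in each contrast (778 and 592 of all 6495 genes), 1 arterial gene for I/R (557 of 4182) and 1 endocardial gene for SBP (1049 of 9933). The difference between endocardial and capillary responses was called for 0 of 4 genes and 0.0% of all genes in every contrast, with 1 gene, Icam1, at an unadjusted p under 0.05 for I/R against sham (587 of 7470).

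For SBP against I/R, limma called 0 of the 10 genes in any population, and 0.0% of all genes except in lymphatic nuclei (0.0199%). At an unadjusted p under 0.05 stood 628 genes in endothelial, 413 in myeloid, 220 in venous-like and 724 in whole-heart sums. The members among them were Selplg in endothelial nuclei and Icam1 in myeloid and venous-like nuclei. Differences of 9 genes in endothelial nuclei ran from -1.12 ± 0.67 for Selp to 0.20 ± 0.21 for Icam2, and 8 were below 0. Itgb2 and Itgal among the 9 passed the filter on low genes only through the injured hearts. Without I/R replicate 2 the Selp and Icam1 differences were smaller, as given above. Over all 12130 genes tested in endothelial nuclei, the median difference was 0.01. How many of these genes were below 0 is not given here, so nothing is read from the 8. A p that misses the threshold does not show that SBP and I/R hearts were alike.

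**Figure D5:**
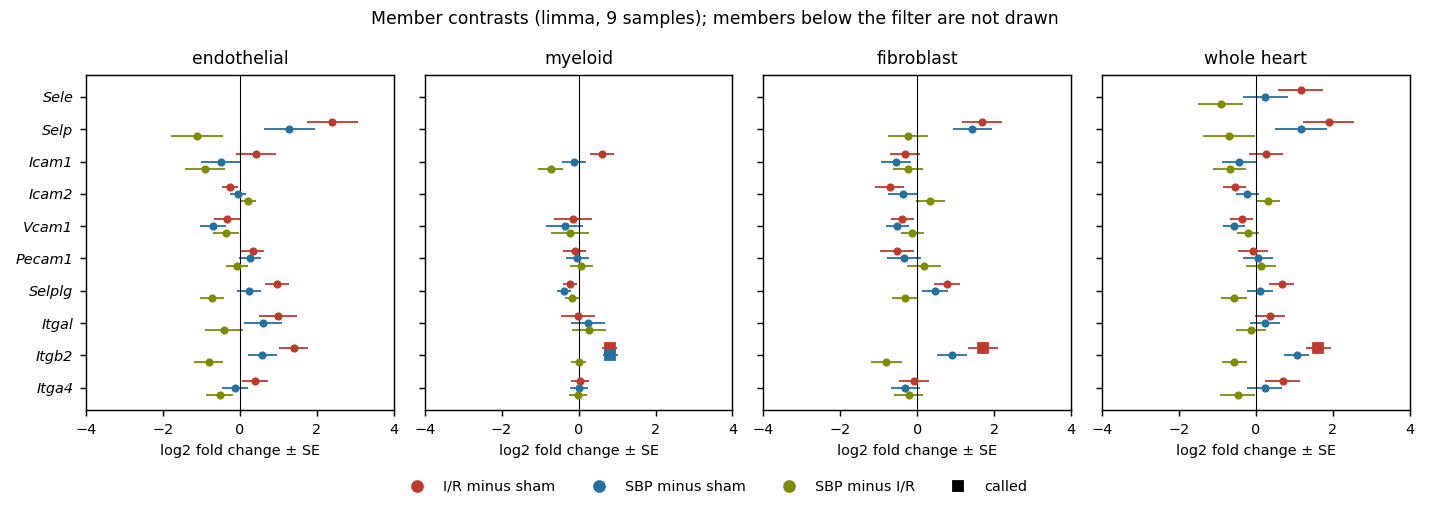
Log2 difference of each tested gene with its SE (x axis) for the 3 contrasts in endothelial, myeloid, fibroblast and whole-heart sums, with genes on the y axis, colours for contrasts and squares for called genes. The 4 squares all belong to Itgb2.

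Other genes of the adhesion pathway were read from 5 lists. In myeloid nuclei, where 17.7% of all genes were called in I/R against sham, the lists had 1 to 3 called genes of 7 to 12 tested, and nothing particular to a list is read from these counts. The sums cover all myeloid nuclei, and the mix of classes differed between the groups. A change of mix cannot be told apart here from a change within cells. The part of RNA from other cell types in these values was not tested. Of 7 tested selectin ligands and carriers 2 rose, among them Cd44 (1.52 ± 0.35, limma adjusted p = 0.0154), and 1 fell, Podxl (-1.13 ± 0.24, limma adjusted p = 0.00758). Of 11 other integrin subunits, Itgam, the Mac-1 partner of Itgb2, rose (1.98 ± 0.42, limma adjusted p = 0.013), as did the fibronectin receptor subunit Itga5 (1.30 ± 0.23, limma adjusted p = 0.00237), and Itga9 fell (-1.48 ± 0.26, limma adjusted p = 0.00306). The integrin activation list had 2 higher genes of 12, Cyth1 (1.09 ± 0.18, limma adjusted p = 0.00193) and Fermt3, which encodes the blood-cell kindlin that activates integrins (0.63 ± 0.16, limma adjusted p = 0.0157). Of 8 junction genes, Jam2 fell (-1.01 ± 0.26, limma adjusted p = 0.0169). Of 11 genes of the endothelial activation list, Nfkbia, the NF-kB inhibitor (2.08 ± 0.55, limma adjusted p = 0.0319), and the TNF receptor Tnfrsf1a (0.80 ± 0.24, limma adjusted p = 0.0379) rose.

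In endothelial nuclei, where 3.24% of all genes were called in I/R against sham, 2 of 10 other integrin subunits rose, Itgam (3.43 ± 0.57, limma adjusted p = 0.0123) and Itgav, a subunit of vitronectin receptors (0.95 ± 0.18, limma adjusted p = 0.0184). Itgam is a leukocyte gene, and the endothelial sum included the 74 nuclei led by Csf3r, Cd300lf and Il1b. Myeloid markers in endothelial nuclei summed to 303 to 423 CPM in sham and 572 to 699 CPM in I/R hearts. The part of either in the Itgam difference was not tested. Of 12 junction and transmigration genes 1 fell, Jam3 (-1.11 ± 0.26, limma adjusted p = 0.0384). None of 8 selectin ligands and carriers, 12 integrin activators and 11 endothelial activation genes was called. The list medians in endothelial nuclei lay between 0.03 and 0.37, and those in myeloid nuclei between -0.13 and 0.52. SBP against I/R called 0 genes of any list in either type.

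Likeness of pattern was measured as Pearson's r over 36 points, the sums of 4 main cell types in 9 hearts, across 14767 genes. The points share libraries and differ mostly by cell type, so r is a description. Selplg was most like Spi1 (0.99) and Nckap1l (0.988), Itgb2 like Laptm5 (0.985) and Cd84 (0.984), Itga4 like Ptprc (0.995) and Arhgap15 (0.992), and Itgal like Pilra (0.963). Pecam1 was most like Cyyr1 (0.992) and Vwf (0.988), Icam2 like Nos3 (0.974) and Map4k2 (0.972), Icam1 like Lrrc8c and Ssh1 (0.947 each), Vcam1 like Selenow (0.958) and Dgkh (0.952), and Selp like Ctla2a (0.933) and Stc1 (0.894). Sele reached no more than 0.757 (E330013P04Rik) and 0.744 (Itih4), with few UMIs behind it.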

How the data were processed

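Nuclei of 9 hearts were profiled. For each nucleus the authors divided the UMIs of a gene by the nucleus total, multiplied by 10000, added 1 and deposited the natural log. The submitters' processing notes name Cell Ranger 4.0, STAR, Seurat 3.2.0 and GRCm38, and the methods describe CellRanger on mm10 and down-sampling of reads. Undoing the log and taking the smallest value of a nucleus as 1 UMI recovered the UMIs. In each library at least 99.99954% of these UMI values lay less than 0.1 from an integer.

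Nuclei were clustered with Scanpy 1.11.5 (2000 variable genes without the 10 members, 30 principal components, 20 neighbours, Leiden resolution 0.8, and 20 components and resolution 0.5 for endothelial and myeloid nuclei). A cluster took the name whose markers had the highest mean log2 ratio to the other nuclei, if at least 3 were found in over 10% of its nuclei and the ratio passed 0.2 (0.5 for myeloid classes), limits set with the data in hand. It stayed unnamed where markers of another lineage outnumbered its own among its top 10 genes. The names were rebuilt here and can differ from those of the study. Scrublet marked 85 nuclei (0.173%), too few for a working caller. They were removed.

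UMIs were summed per sample and type (at least 20 nuclei), scaled with TMM factors and tested as log2(CPM + 1) with limma 3.58.1 (trend, robust, R 4.3.3). Genes needed the CPM of 10 UMIs in 3 samples and 15 UMIs in all. On simulated I/R against sham data, 200 of 200 genes changed by a log2 difference of 2 were recovered (endothelial, 11984 genes, 2 unchanged genes called). In myeloid data with 10696 genes, 8 unchanged genes were called. The simulation used the same dispersion for every gene and changed only genes above the median level. It therefore does not show how often changes of sparse or variable members would be found. No 2 libraries of a group were alike within sampling noise (chi-square per degree of freedom 17.0 to 79.2), and nothing said whether mice were processed apart. The p-values therefore measure the spread between these samples. Promoter sequences came from RefSeq (GRCm38.p6). The members, gene lists and rules were chosen with earlier results of these data known. The text names the 10 members, up to 3 called genes per list and direction in endothelial or myeloid nuclei (I/R against sham, SBP against I/R), and the 2 most similar genes of each member. A few results that this rule would name are not reported here. Alternatives covered scaling, pseudocounts (0.5 and 5), filters, doublets, cell type assignment, samples fitted, a replicate block and leaving out each sample.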

Additional observations from a re-analysis of the deposited data

How the results depend on the processing

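The 10 genes gave 207 tested contrasts over all populations, of which 113 kept their sign under all of the alternatives run. All 4 calls, each of Itgb2, kept their sign. Calls rest on few mice. Leaving out 1 sample at a time gave between 0 and 2 called members in the whole heart for I/R against sham and 0 and 1 for SBP against sham, and between 0 and 1 in endothelial, myeloid and endocardial nuclei (endocardial only for SBP against sham) and in fibroblasts (I/R against sham). Without I/R replicate 2, the Itgb2 calls of I/R against sham were lost in myeloid nuclei (limma adjusted p = 0.0545), fibroblasts (0.0669) and the whole heart (0.0577). They were also lost without sham replicate 1 in fibroblasts (0.0557) and the whole heart (0.0578), and without sham replicate 3 in the whole heart (0.0543). The myeloid call of SBP against sham was lost without SBP replicates 2 (0.0825) or 3 (0.0595) or sham replicate 3 (0.0582). Endothelial Itgb2 was called in I/R against sham without I/R replicate 3 (0.0414) or SBP replicate 3 (0.0404). Whole-heart Selp was called in I/R against sham without I/R replicate 1 (0.032) and in SBP against sham without I/R replicate 2 (0.0437), and whole-heart Itgb2 in SBP against sham without I/R replicate 3 (0.0399).

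With means of the deposited natural log values, 0 members were called in myeloid nuclei, fibroblasts and the whole heart. After conversion of these means to log2, the limma adjusted p of myeloid Itgb2 stayed below the limit (0.0111 and 0.0191), and the log2 differences (0.1953 and 0.1869) were under the fold limit of 0.25. With resident macrophages only, 0 myeloid members were called. With no filter on low genes, 1 was called in arterial (Pecam1) and 1 in lymphatic nuclei (Selp, untested otherwise) for I/R against sham, 2 in fibroblasts for I/R against sham and 2 in myeloid nuclei for SBP against sham, with Selp added in both. Fibroblasts also gave 2 with cell types from marker scores and with a pseudocount of 0.5. With only the 6 samples compared, SBP against sham gave 1 in endothelial nuclei (Selp) and 2 in the whole heart (Selp and Itgb2). Merging capillary, venous-like and Col15a1-led nuclei gave 1 (Selp). No alternative called a member in SBP against I/R. The cause of these changes was not tested. The merge, the resident macrophage fit and a fit of the endocardial minus capillary difference with no trend, which changed no call, were chosen after seeing the data.

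Replicate numbers shared between groups did not pair the samples in general, since same-numbered pairs did not all correlate. Fibroblasts of sham and SBP hearts were an exception, with 3 of 3 pairs over 0.1 (0.142 to 0.159), each best with its own number. There 0 members were called with or without the block. Myeloid pairs of sham and SBP hearts were also best with their own number (0.052 to 0.128). Sham replicates 1 and 2 correlated best with I/R replicates 2 and 1 in whole-heart, endothelial, myeloid and fibroblast sums. In these sums I/R replicates 1 and 2 correlated best with SBP replicates 2 and 1. The block used the replicate numbers, and such crossed pairs were not fitted. Of 9 same-numbered pairs, 3 had a correlation of deviations over 0.1 in the whole heart, 2 in endothelial, 3 in myeloid, 5 in fibroblast and 2 in cardiomyocyte sums, and 4, 2, 5, 5 and 2 pairs correlated best with their own number. With the replicate block, the number of members called was 1 in the whole heart (Itgb2, limma adjusted p = 0.0187), 1 in fibroblasts (0.0238) and 1 in myeloid nuclei in each contrast with sham (0.0128 and 0.0164), and 0 in the others. Low UMI numbers limit Sele in all cell types, and the leukocyte genes outside leukocytes.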

Other observations

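In endothelial nuclei, 1 of 10 tested genes of the list of other integrin subunits and 1 of 11 of the endothelial activation list were called in SBP against sham, and none of the other 3 lists. Over all genes 2.24% were called, so nothing particular to the lists is read from these counts. Both genes were named after their values were seen. Itgav rose (0.88, limma adjusted p = 0.0312), as it did in I/R against sham. Irf1, an interferon-response transcription factor, fell (-0.93, limma adjusted p = 0.0125).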
